A study of Mus musculus with 8 samples.

Results

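The genes described here are 16 genes that macrophages and related leukocytes express and 15 genes that respond to interferon, read in mouse total RNA on Affymetrix mouse arrays, which read each transcript with sets of short oligonucleotide probes. Members were chosen by name, as every probe set whose platform annotation names only the listed gene, with no filter on signal. This gave 47 of the 45037 probe sets other than controls, for 30 of the 31 listed genes. Isg15 shares its probe set's annotation with a second gene name and is not analysed here. The study holds 8 arrays, of which the labels call 4 Ctrl and 4 Exp. They give no treatment, genotype, strain, sex, age or allele for either group, so what the groups share beyond species and tissue is not known. The tissue is called trigeminal ganglion, which holds the sensory neurons of the face, by one label and brain and adrenal medulla by another. All 11 measured markers of sensory neurons lay above the 40th percentile of mean signal (about 333 on the linear scale of the deposited values). So did 12763 of all 18193 named genes and all 10 measured markers of Schwann and satellite glia. The count therefore does not tell which tissue label holds. Nothing in the labels says that each array came from a separate animal, and p-values then reflect only how these arrays vary, which may be technical.

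Macrophages settle in peripheral ganglia and nerves during development, clear dying cells and myelin debris, and survive through signals from the colony stimulating factor receptor Csf1r. Interferons are cytokines of antiviral defence. They bind cell surface receptors and activate Stat2, which together with Irf9 enters the nucleus and binds a short element in the promoters of interferon-stimulated genes. Many of those genes code for sensors and blockers of viral RNA and keep a low basal level in uninfected tissue.

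Most of the macrophage genes had a lower mean in Exp than in Ctrl, by small amounts, and no gene of either list passed the test. Taking the probe set with the highest mean for each gene, 12 of 16 macrophage genes were lower in Exp, with a median difference of -0.23 log2 units. Of the interferon genes 9 of 14 were lower, with a median of -0.18. Over all 18193 named genes, taken the same way, 53.4% were lower and the median was -0.01. In limma, 0 of the 47 member probe sets passed a 5% false discovery rate over all 45037 probe sets, as did 0% of the whole table. At an unadjusted p below 0.05, 6 member probe sets stood, 5 lower and 1 higher in Exp, against 4.93% of all probe sets (2.48% lower and 2.45% higher). All 4 Exp arrays lay below all 4 Ctrl arrays in 3 member probe sets and above them in 1, against 1.29% and 1.24% of all probe sets. With no gene passing, a fall of macrophage RNA in Exp is not established. In whole tissue, a change in macrophage number and one in RNA per macrophage could not be told apart in any case.

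**Figure D1:**
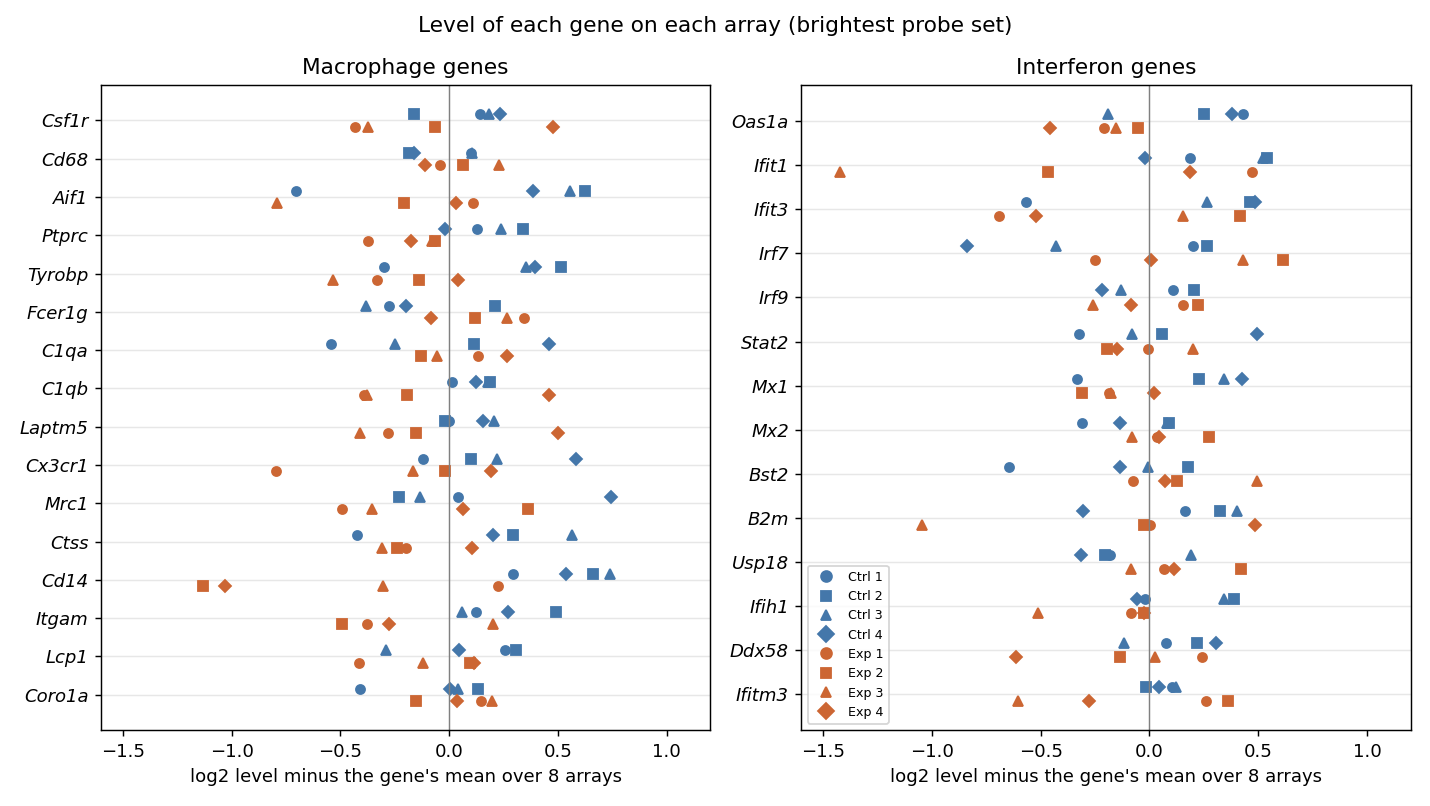
Level of each gene on each array in its brightest probe set, as log2(signal + 16) minus the gene's mean over the 8 arrays, for macrophage genes (left) and interferon genes (right); blue is Ctrl, orange is Exp, and the marker shape gives the array number. In most macrophage genes the orange points lie to the left, yet the groups separate only for Ptprc and Cd14, and in none of the interferon genes. Of all 18193 named genes, 237 had every Exp array below every Ctrl array and 200 had every one above.

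Levels below are log2(signal + 16) after quantile normalization, and a difference is Exp minus Ctrl on that scale with its standard error (SE). The pseudocount compresses changes of dim probe sets. Of the 30 genes, 21 had a brightest probe set above the 40th percentile, 13 macrophage and 8 interferon genes. Over all 18193 named genes, 12763 did. Among the 13 brighter macrophage genes 9 were lower in Exp, with a median of -0.20, and among the 8 brighter interferon genes 6 were lower, with a median of -0.18.

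Cd14, the co-receptor for bacterial lipopolysaccharide, had the largest difference among the genes' brightest probe sets. Its level was 7.95, 8.32, 8.39 and 8.19 in Ctrl 1 to 4 and 7.88, 6.52, 7.35 and 6.62 in Exp 1 to 4. Every Exp array lay below every Ctrl array, with Exp 1 only just below Ctrl 1. The difference was -1.12 (SE 0.31, 95% confidence interval -1.82 to -0.41), from 8.21 ± 0.20 to 7.09 ± 0.64 (SD, n = 4 each), and it did not pass in limma (unadjusted p = 0.00662, adjusted p = 0.997). This probe set is dim, below the 40th percentile. Itgam, the integrin subunit of the complement receptor of myeloid cells, was dim as well, at 7.06, 7.43, 7.002 and 7.21 in Ctrl and 6.56, 6.45, 7.14 and 6.67 in Exp. Exp 3 lay within the Ctrl range and the other Exp arrays below it, for a difference of -0.47 (SE 0.18; limma, unadjusted p = 0.0322, adjusted p = 0.997).

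Ptprc, the CD45 phosphatase carried by white blood cells, read 10.18, 10.39, 10.29 and 10.04 in Ctrl and 9.68, 9.99, 9.98 and 9.88 in Exp. The groups did not overlap, although Exp 2 lay close below Ctrl 4. The difference was -0.34 (SE 0.13, 95% confidence interval -0.64 to -0.05; limma, unadjusted p = 0.0288, adjusted p = 0.997). Its dimmer probe set differed by -0.53 (SE 0.43), with overlapping groups. Tyrobp, the adaptor that passes on signals from activating myeloid receptors, read 9.16, 9.97, 9.81 and 9.85 in Ctrl and 9.12, 9.31, 8.92 and 9.50 in Exp. Ctrl 1 was as low as the Exp arrays and the other Ctrl arrays lay above all of them, for a difference of -0.48 (SE 0.21; limma, unadjusted p = 0.0542). Fcer1g, the partner adaptor of Fc receptors, went the other way without passing, by 0.32 (SE 0.17; limma, unadjusted p = 0.0894).

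Csf1r, the receptor through which macrophages receive their survival signal, has 3 probe sets. The one for which the annotation gives a GenBank accession, 1423593_a_at, read 9.55, 9.50, 9.46 and 9.55 in Ctrl and 9.40, 8.82, 8.81 and 9.10 in Exp. All Exp arrays lay below the narrow Ctrl range, and the difference was -0.48 (SE 0.15; limma, unadjusted p = 0.0143, adjusted p = 0.997). The brightest, 1419872_at, read 13.87, 13.56, 13.91 and 13.96 in Ctrl and 13.29, 13.66, 13.35 and 14.20 in Exp. Exp 1 and Exp 3 were the lowest arrays there and Exp 4 was the highest of all 8, so that the groups overlapped and the difference was -0.20 (SE 0.22). The third probe set, 1419873_s_at, differed by -0.21 (SE 0.20).

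The annotation gives no accession for 8 of the 47 member probe sets, which belong to Csf1r, C1qb, Laptm5 and B2m. In C1qb, a chain of the complement component that tags debris for uptake, the brightest such probe set, 1434366_x_at, read 10.74 to 10.92 in Ctrl and 10.33, 10.53, 10.35 and 11.19 in Exp. In Laptm5, a lysosomal membrane protein of blood cells, 1436905_x_at read 12.88 to 13.11 in Ctrl and 12.62, 12.75, 12.49 and 13.40 in Exp. In both, as in 1419872_at of Csf1r, Exp 4 was the highest array. The other Exp arrays lay below every Ctrl array in C1qb and Laptm5, and in Csf1r only Exp 1 and Exp 3 did. Over the 8 arrays the level of 1419872_at had a Pearson correlation of 0.94 with 1436905_x_at and 0.87 with 1434366_x_at. The correlation was 0.81 with 1437726_x_at of C1qb and 0.79 with 1419873_s_at of Csf1r, which also lack an accession. With the other Laptm5 probe sets that lack an accession it was 0.46 (1447742_at) and -0.32 (1459841_x_at), so the likeness does not hold for all of them. With accession-bearing probe sets it was 0.23 in Csf1r (1423593_a_at) and 0.38 in C1qb (1417063_at). In Laptm5 it was 0.38 (1426025_s_at) and -0.46 (1417721_s_at). These are descriptions over 8 shared arrays, and a probe set's target sequence was not examined here. The Laptm5 probe set 1426025_s_at, which has an accession, differed by -0.40 (SE 0.19) and its Exp 4 level, 9.52, lay below all 4 Ctrl arrays.

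**Figure D2:**
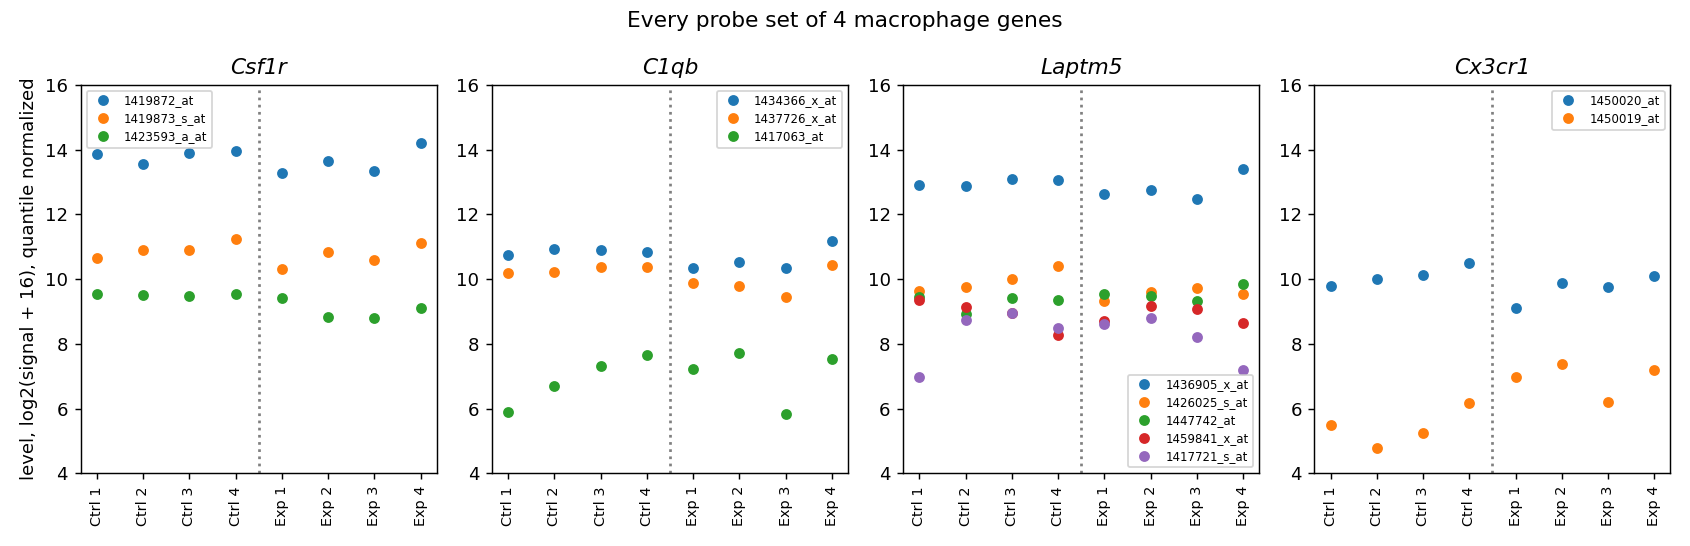
Every probe set of Csf1r, C1qb, Laptm5 and Cx3cr1, with the level as log2(signal + 16), quantile normalized, on the vertical axis and the 8 arrays on the horizontal axis; the dotted line parts Ctrl from Exp. Exp 4 stands highest in the brightest probe set of Csf1r, C1qb and Laptm5, and the lower Cx3cr1 probe set is higher in all Exp arrays.

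Cx3cr1, the receptor for the neuronal chemokine fractalkine, gave opposite signs in its 2 probe sets. The brighter, 1450020_at, read 9.79, 10.01, 10.13 and 10.49 in Ctrl and 9.11, 9.89, 9.74 and 10.10 in Exp, with overlapping groups and a difference of -0.39 (SE 0.24). The dimmer, 1450019_at, read 5.50, 4.79, 5.24 and 6.16 in Ctrl and 6.98, 7.38, 6.19 and 7.20 in Exp. There the lowest Exp array, Exp 3, lay just above the highest Ctrl array, and the difference was 1.51 (SE 0.35; limma, unadjusted p = 0.00271, adjusted p = 0.884). This probe set is far below the 40th percentile (a level of 8.45), and both have the same accession in the annotation. Signs differed between probe sets in 5 of the 10 member genes that have several, the others being C1qb, Laptm5, Stat2 and Ddx58.

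The remaining macrophage genes overlapped between groups. Ctss, a lysosomal protease of antigen presenting cells, read 12.12 to 13.11 in Ctrl and 12.24 to 12.65 in Exp and differed by -0.32 (SE 0.22). Aif1, the calcium-binding protein known as Iba1, differed by -0.43 (SE 0.34), with Ctrl 1 at 7.05 and Exp 3 at 6.97 as its lowest arrays. Mrc1, the mannose receptor of tissue-resident macrophages, differed by -0.21 (SE 0.27), and its highest array was Ctrl 4, at 10.85. The actin-bundling protein gene Lcp1 differed by -0.16 (SE 0.19). Higher means in Exp were seen in C1qa, another chain of the same complement component, at 0.11 (SE 0.22), in Coro1a, an actin regulator of leukocytes, at 0.11 (SE 0.16), and in Cd68, a lysosomal glycoprotein, at 0.07 (SE 0.13). The 95% confidence interval of the difference lay within a 2-fold change in either direction for 14 of the 16 macrophage genes, with Cd14 and Aif1 as the exceptions.

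The Exp arrays were not alike in this list. Of the 16 macrophage genes, 13 lay below the Ctrl mean on the first Exp array, 12 on the second, 12 on the third and 9 on Exp 4. The mean of the list, as deviation from the 8-array mean of each gene, was -0.20, -0.15, -0.19 and 0.04 on these arrays. In Ctrl it was -0.10 (Ctrl 1, -0.105), 0.21, 0.15 and 0.23 (Ctrl 4, 0.235), so that Ctrl 1 lay below Exp 4 and the groups overlapped. The median difference of -0.23 became -0.38 without Exp 4 and -0.14 without Exp 1. Without Ctrl 1, 14 of 16 genes were lower in Exp.

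The interferon list follows the order of the pathway, from sensors to signalling to effectors. Among the sensors of viral RNA, Ifih1 (the MDA5 helicase) read 9.48, 9.89, 9.85 and 9.45 in Ctrl and 9.42, 9.48, 8.99 and 9.48 in Exp. Exp 3 stood apart below its group, the other Exp arrays met the lower Ctrl arrays, and the difference was -0.33 (-0.325, SE 0.17; limma, unadjusted p = 0.0946). Ddx58, the RIG-I helicase, differed by -0.24 (SE 0.20) in its brightest probe set, with Exp 4 lowest at 9.46, and its dimmer probe sets by 0.10 (SE 0.48) and -0.28 (SE 0.77).

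Of the signalling genes, Irf9 read 10.35 to 10.78 in Ctrl and 10.31 to 10.80 in Exp, a difference of 0.02 (SE 0.16; -0.011 with arrays centred on their medians). Stat2 read 8.69 to 9.51 in Ctrl and 8.81 to 9.21 in Exp, a difference of -0.08 (SE 0.19). Irf7, the factor that amplifies interferon production, differed by 0.40 (SE 0.30) and was dim, with Ctrl 4 lowest at 7.34 and Exp 2 highest at 8.79. Usp18, the protease that removes Isg15 from proteins and damps receptor signalling, read 8.01, 7.99, 8.38 and 7.88 in Ctrl and 8.26, 8.61, 8.11 and 8.31 in Exp. The groups overlapped, with a difference of 0.26 (SE 0.16; limma, unadjusted p = 0.151).

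Of the effectors, Oas1a, which makes the oligoadenylate that activates an RNA-degrading enzyme, had the smallest p of the list. It read 9.77, 9.60, 9.15 and 9.72 in Ctrl and 9.13, 9.29, 9.19 and 8.89 in Exp. Ctrl 3 lay among the Exp arrays and the other Ctrl arrays above them all. The difference was -0.44 (SE 0.17, 95% confidence interval -0.83 to -0.04; limma, unadjusted p = 0.0341, adjusted p = 0.997). Mx1, a GTPase that blocks influenza viruses, was dim and read 7.42, 7.98, 8.10 and 8.18 in Ctrl and 7.57, 7.44, 7.58 and 7.77 in Exp. Here Ctrl 1 was the lowest of all arrays and the other Ctrl arrays lay above every Exp array, for a difference of -0.33 (SE 0.19; limma, unadjusted p = 0.113). Its neighbour Mx2 differed by 0.14 (SE 0.14) at a far dimmer signal.

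Ifit1 and Ifit3, proteins that bind foreign RNA, differed by -0.61 (-0.615, SE 0.40) and -0.32 (SE 0.33), both in dim probe sets. The difference of Ifit1 was -0.24 without Exp 3 and that of Ifit3 ran from -0.565 without Ctrl 1 to -0.15 without Exp 1. For Ifit1 the Exp arrays ran from 6.48 in Exp 3 to 8.37 in Exp 1, wider than the Ctrl range of 7.88 to 8.44. B2m, the light chain of MHC class I, read 11.91, 12.08, 12.15 and 11.44 in Ctrl and 11.75, 11.72, 10.70 and 12.23 in Exp. Exp 3 was the lowest array and Exp 4 the highest, and the difference of -0.29 (SE 0.33) was 0.01 without Exp 3. Ifitm3, which blocks virus entry at endosomes, differed by -0.13 (SE 0.22), also with Exp 3 lowest, at 8.46, and by 0.05 without it. Bst2, the tether that holds budding virus at the cell surface, differed by 0.31 (0.305, SE 0.21), with Exp 3 highest at 9.82.

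Of the 14 interferon genes 5 had their lowest level in Exp 3 and 4 in Ctrl 1, while 5 had their highest in Exp 2 and 4 in Ctrl 4. The mean deviation of the list was -0.08, 0.21, 0.09 and 0.01 in Ctrl 1 to 4 and -0.02, 0.09, -0.22 and -0.09 in Exp 1 to 4. By this mean the groups overlapped. The median difference of -0.18 was -0.07 without Exp 3 (-0.074) and also -0.07 without Exp 4 (-0.066). For 10 of the 14 genes the 95% confidence interval lay within a 2-fold change in either direction. Of the macrophage genes 13 of 16 and of the interferon genes 13 of 14 had an interval that includes 0. An interval leaves out 0 where the unadjusted p in limma is below 0.05. That held for 395 lower and 331 higher ones of all 18193 named genes.

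**Figure D3:**
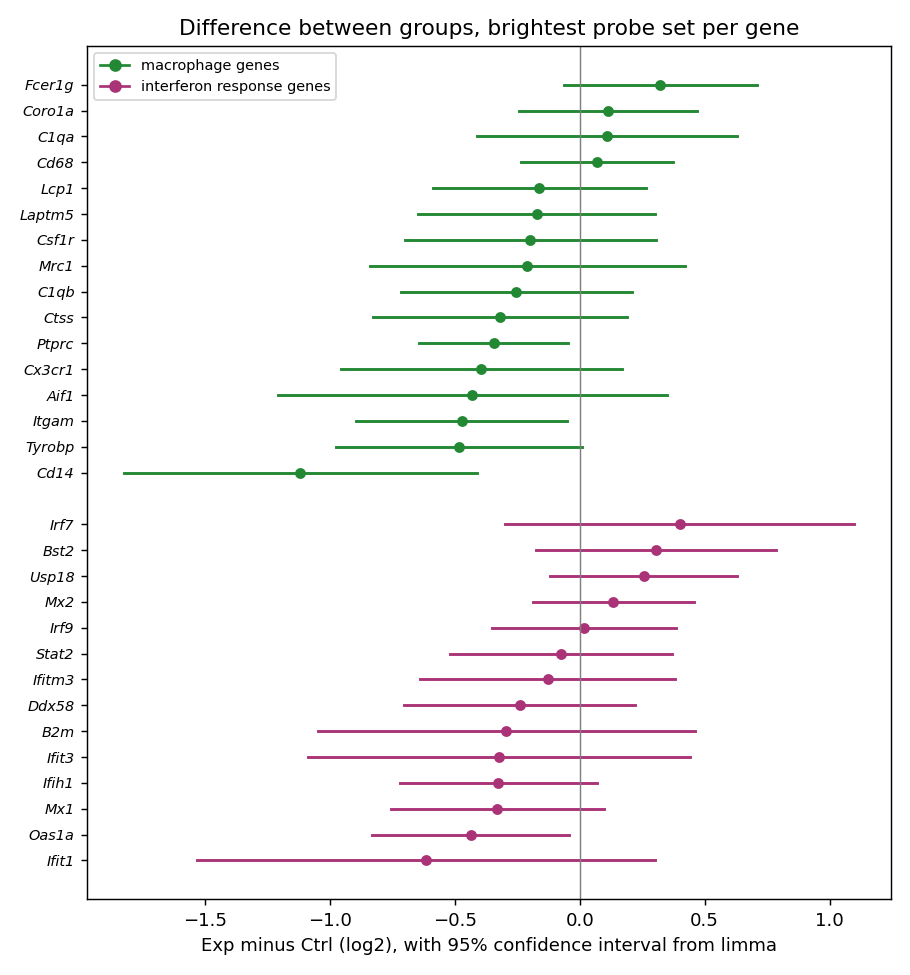
Exp minus Ctrl in log2 units with its 95% confidence interval from limma for the brightest probe set of each gene, macrophage genes in green and interferon genes in purple, sorted within each list. Intervals that leave out 0 are those of Cd14, Itgam, Ptprc and Oas1a, all below 0, and none of these genes passed the adjusted test.

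Many of the interferon genes share a promoter element, which is shown here beside their differences. The core of the interferon-stimulated response element, GAAANNGAAA, was searched on both strands in RefSeq promoter windows of 300 bases (GRCm38.p6, 250 before to 50 after the transcription start). It may overlap itself. The table holds windows for 12 of the 15 listed interferon genes, and 10 of them (83.3%) have a match: Oas1a, Ifit1, Ifit3, Isg15, Bst2, B2m, Stat2, Ifih1, Ddx58 and Ifitm3. Of the 12 macrophage genes with a window 2 have one (16.7%), Ctss and Aif1, against 3.99% of all 27025 genes in the table and 3.44% of its 32851 windows. Of the further interferon-stimulated genes described below, 9 of 28 with a window have a match (32.1%), and of the further macrophage genes 1 of 23 (4.35%). A match is a description of the letters and not evidence of binding. The following 5 stretches of 70 bases, all before the transcription start, are shown because they hold the element before the start in genes with lower (Oas1a, Ifit1, Ifit3, B2m) and higher (Bst2) means in Exp. Each is written 5′ to 3′ on the gene's strand, with the matches in capitals (TTTCNNTTTC where the match is on the other strand).
Oas1a, chr5:120907526-120907595, minus strand: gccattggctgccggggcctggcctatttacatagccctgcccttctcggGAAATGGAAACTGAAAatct
Ifit1, chr19:34640764-34640833, plus strand: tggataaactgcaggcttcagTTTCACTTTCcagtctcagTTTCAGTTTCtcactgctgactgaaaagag
Ifit3, chr19:34583360-34583429, plus strand: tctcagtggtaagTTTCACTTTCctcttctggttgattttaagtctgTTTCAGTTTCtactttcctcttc
Bst2, chr8:71537560-71537629, minus strand: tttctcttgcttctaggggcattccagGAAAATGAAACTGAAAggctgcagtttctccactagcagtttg
B2m, chr2:122147518-122147587, plus strand: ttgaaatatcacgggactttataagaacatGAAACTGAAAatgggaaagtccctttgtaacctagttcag

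In Oas1a and in Bst2 2 overlapping matches run together over 16 bases, in Ifit1 and Ifit3 2 matches stand apart, and B2m has 1. The 2 overlapping matches begin at -20 and -14 from the start in Oas1a and at -130 and -124 in Bst2. Oas1a differed by -0.44 and Bst2 by 0.31 (0.305), and neither passed in limma. Bst2 was the only measured interferon gene with a match whose mean was higher in Exp, and the others were lower. Irf7 (0.40) and Irf9 (0.02), which have a window and no match, were higher, and none of these genes passed. A link between the element and the differences was not tested.

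Other genes of the same cells and pathway were read from lists that share no gene with the members. Of 29 measured further macrophage genes 20 were lower in Exp, with a median of -0.09, and 0 passed. The F4/80 gene Adgre1 differed by -0.16 (SE 0.15). Ly86, a partner of an innate receptor, differed by -0.28 (SE 0.12), with all Exp arrays (10.05 to 10.26) below all Ctrl arrays (10.29 to 10.59), and the integrin chain Itgb2 by 0.28 (SE 0.12). Their mean deviation was -0.16 to 0.27 in Ctrl and -0.23 to 0.15 in Exp, and Exp 4 was again the highest Exp array. Of 35 further interferon-stimulated genes 20 were lower, with a median of -0.01. The 3 with the smallest p were Ifitm2 at -0.30 (SE 0.14), with Exp at 11.36 to 11.74 and Ctrl at 11.83 to 12.13, Dtx3l, a ubiquitin ligase, at 0.29 (SE 0.16) and Oas3 at -0.92 (SE 0.55), the latter 2 with overlapping groups. Interferon receptors and signalling genes, with the interferons themselves, had 7 of 15 lower and a median of 0.01. The 3 with the smallest p had higher means in Exp, with overlapping groups and dim probe sets: Ifnb1, interferon beta, at 0.42 (0.425, SE 0.20), Tlr7, a sensor of viral RNA in endosomes, at 1.62 (SE 0.79) and Ifng, interferon gamma, at 0.90 (SE 0.46). The genes of MHC class I and its peptide loading had 7 of 10 lower, with a median of -0.10. In that list H2-D1, a class I heavy chain, differed by -0.90 (SE 0.41).

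Among 14 growth factors, chemokines and cytokines of macrophages 8 were lower, with a median of -0.13. Ccl12, a chemokine that draws monocytes, had the smallest p of every gene in these lists. It read 6.14, 6.40, 6.85 and 6.64 in Ctrl and 4.75, 5.29, 4.75 and 5.04 in Exp (Exp 1 and Exp 3 both 4.745), with no overlap between the groups. The difference was -1.55 (SE 0.20; limma, unadjusted p = 5.53e-05) and did not pass over all probe sets (adjusted p = 0.241), and the probe set is far below the 40th percentile. The related chemokine Ccl2 differed by 0.75 (SE 0.41). Csf1, a ligand of Csf1r, differed by -0.14 (SE 0.14).

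Markers of other cells differed between arrays as well, and their part in the values above was not tested. Skeletal muscle markers (11 of 12 higher in Exp) had a mean deviation of -0.42 to -0.24 in Ctrl and -0.80 to 1.62 in Exp, highest in Exp 3 and lowest in Exp 4. Endothelial and mural markers (8 of 12 lower) ran from -0.19 to 0.28 in Ctrl and from -0.37 in Exp 3 to 0.55 in Exp 4. Exp 4 was also the Exp array with the highest macrophage mean. Part of its endothelial mean came from 2 dim genes. Tie1 read 7.49 there and 4.60 to 5.77 on the other arrays, and Pecam1 read 7.91 there and 7.79 in Ctrl 4. Cdh5 was higher in Exp by 0.63 (SE 0.115), at 9.86 to 10.12 against 9.18 to 9.46 in Ctrl. It did not pass in limma (unadjusted p = 0.000633, adjusted p = 0.518). Schwann and satellite glia markers (8 of 10 lower) ran from -0.06 to 0.42 in Ctrl and from -0.46 to 0.01 in Exp. Much of this spread came from Egr2, a transcription factor of myelination that differed by -2.66 (SE 1.03), and over the other 9 genes the mean ran from -0.09 to 0.16 in Ctrl and from -0.17 to 0.02 in Exp. Lymphocyte, granulocyte and mast cell markers (7 of 13 lower) ran from -0.14 to 0.21 in Ctrl and -0.25 to 0.09 in Exp, with 3 of 13 above the 40th percentile. Fibroblast and matrix markers (3 of 10 lower) ran from -0.25 to 0.11 in Ctrl and -0.25 to 0.57 in Exp, erythroid markers (7 of 11 lower) from -0.15 to 0.30 and -0.42 to 0.20, and sensory neuron markers (5 of 11 lower) from -0.03 to 0.05 and from -0.06 to 0.08. No marker is at 0 in the deposited values, which carry no detection call. Without Exp 3, the array with the highest muscle mean, the macrophage median was -0.16. It was -0.14 without Exp 1 and -0.38 without Exp 4, the array with the lowest muscle mean. A link between muscle content and the macrophage values was not tested.

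**Figure D4:**
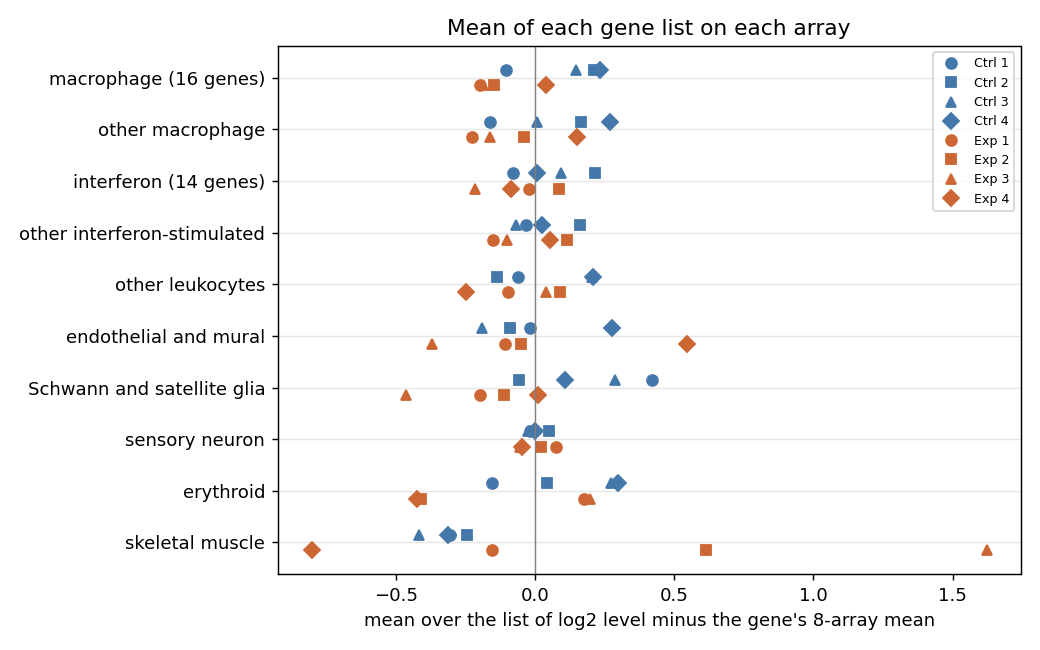
Mean over each gene list of the log2 level minus the gene's mean over 8 arrays, with 1 point per array; blue is Ctrl, orange is Exp, and the shape gives the array number. The macrophage means overlap between groups, from -0.10 to 0.23 in Ctrl and from -0.20 to 0.04 in Exp, and the muscle list spreads over the Exp arrays.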

How the data were processed

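Total RNA of 8 arrays was compared as 4 Ctrl against 4 Exp, groups and numbers taken from the sample titles. The values the authors deposited are linear probe set intensity values. How they were made is not stated by the labels or the table. Every array had the same trimmed mean of 2500, as scaling each array gives, with medians of 478 to 553 over 45101 probe sets, and fold changes are therefore relative to the bulk of probe sets. Each column belongs to 1 array.

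The analysis used log2(signal + 16), quantile normalized, as array medians differed by 0.203, over a limit of 0.2. All 45037 probe sets other than 64 controls were fitted without a filter in limma 3.58.1 (R 4.3.3; lmFit, eBayes, two-sided, Benjamini-Hochberg). Gene names came from the platform annotation. 34945 probe sets name 1 gene, of which 34741 matched RefSeq GRCm38.p6 by identifier, 932 name several and 9160 none. The brightest probe set by mean stands for a gene.

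The members and lists were chosen with earlier results of these data known. All members are described. Values on each array are given for the 4 smallest p of each list, for groups that do not overlap and for arrays that stand apart. They are also given for B2m and for the brightest probe sets of Csf1r and Cx3cr1. In those of C1qb and Laptm5 they are given for the Exp arrays. Of other lists at most 3 genes with the smallest p are named, and Adgre1 and Csf1 in addition for their roles. Pecam1 is named for its level on Exp 4, after the values were seen. Probe sets without an accession were singled out after their values were seen. Alternatives were pseudocounts of 1 and 64, no normalization, median centring, a filter at the 40th percentile, array weights, robust eBayes with a trend, a block for the replicate number, other choices of probe set and each array left out. The code was tested on simulated data. Same-numbered arrays did not deviate together (correlations of -0.04 to 0.01), so the number was not used as a pairing. With 4 arrays a group, the number of arrays limits the precision. Figures were drawn with matplotlib 3.10.9.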

Additional observations from a re-analysis of the deposited data

Results flagged for a closer look

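Within groups of 4 arrays, the level of each gene and the mean of each list were searched for an array whose gap to its nearest neighbour is too large a part of the range by Dixon's test at the 95% level. In 1 of 64 groups an array stood apart, where chance gives about 3.2. It was Exp 3 for Ifih1, at 8.99 against 9.42 to 9.48 in the other Exp arrays.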

How the results depend on the processing

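No member probe set was called in any of the fits run, with 1 array left out or with another pseudocount (1 and 64), scaling, filter, weighting or eBayes option, and the smallest adjusted p among them was 0.503. With the replicate number as a block the count was likewise 0. In this balanced design the block cannot move a difference, so the medians of -0.23 and -0.18 are the same by construction. Among all probe sets 0 were called, against 1 with the filter, 1 with trend and robust options and 2 without Exp 2, and none of these was a member. Of the 30 genes 4 had an unadjusted p below 0.05, a count that ran from 1 (without Exp 1) to 7 (without Ctrl 1). In the main fit all 4 were lower in Exp. Over all 18193 named genes, 395 lower and 331 higher ones had such a p. The macrophage median lay between -0.38 and -0.14 and the interferon median between -0.25 and -0.07 with 1 array left out. Only probe sets with an accession, an alternative chosen after the data were seen, gave -0.33 and -0.18. The sign of Irf9 turned with median centring (-0.011), those of Cx3cr1 (0.56) and Stat2 (0.037) when all probe sets of a gene were averaged, and that of C1qb (0.18) with accession-bearing probe sets. With 1 array left out, signs turned within C1qa (-0.053 to 0.28), Coro1a (-0.004 to 0.18), Mrc1 (-0.365 to 0.003), Irf9 (-0.054 to 0.11), Stat2 (-0.20 to 0.077), B2m (-0.51 to 0.007) and Ifitm3 (-0.27 to 0.051); the cause was not tested. Without a stated background, how far dim probe sets such as those of Cd14 and Itgam rise above it is not known.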
